A study of Homo sapiens with 6 samples.

Results

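The genes described here are 10 transcription factors of the B lineage, SOX11, PAX5, EBF1, IRF4, IRF8, BCL6, PRDM1, SPIB, POU2AF1 and BACH2, taken by gene symbol from a table of 25277 gene rows. All 10 averaged 1 FPKM or more over the libraries and were tested among 11400 such genes. FPKM are sequenced fragments scaled to the length of the transcript and to the number of mapped fragments. By its labels, the RNA came from Jeko and Rec-1, cell lines of human mantle cell lymphoma, a cancer of mature B cells. Cells of each line expressed Cas9 and carried a doxycycline-induced vector, and all 6 libraries were made after 48 h of doxycycline. The 4 groups were Jeko with the empty vector (1 library), Jeko with an NR4A1 sgRNA (1 library for sgRNA#1 and 1 for sgRNA#2), Rec-1 with the empty vector (1 library) and Rec-1 with an NR4A1 sgRNA (again 1 library for each guide). NR4A1 encodes an orphan nuclear receptor. No label says that the libraries of a line came from separate cultures, so the 2 guides of a line stand in for replicates and p-values measure the spread between them alone.

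A B cell keeps its identity through a small network of transcription factors. EBF1 and PAX5 commit a progenitor to the lineage and hold it there, SPIB (an ETS factor) and POU2AF1 (a coactivator of octamer-binding factors) serve signalling and the germinal centre, and IRF8, BCL6 and BACH2 favour the germinal centre state. PRDM1 (Blimp-1), together with high IRF4, ends that programme and drives plasma cell differentiation. BCL6 and PRDM1 repress each other. SOX11 is a neural SOXC factor that normal B cells lack and that most mantle cell lymphomas express, where it has been tied to PAX5 and to a block of plasma cell differentiation.

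BCL6 with PRDM1 and IRF8 with IRF4 are shown by the 250 bases before their start sites. In each of these pairs the order in the sgRNA libraries labelled Rec-1 was the reverse of that in the other 4. Other pairs among the 10 reversed too, such as IRF4 with POU2AF1 and BCL6 with SOX11. A promoter is among the places where transcription factors can bind, and binding was not measured here. The sequences are from RefSeq on GRCh38.p14, a later build than the one named for the expression table, and are written 5′ to 3′ on the gene's strand. Promoter windows were found for 8 of the 10 genes, not for SOX11 and POU2AF1, and BCL6, IRF8 and PRDM1 have 2 windows each, 11 in all. Both are printed for BCL6, and the upstream one for IRF8 and PRDM1. Capitals mark E-boxes (CANNTG, the core read by E proteins such as TCF3), ETS cores (CGGAAG), octamers (ATGCAAAT) and interferon response cores (GAAANNGAA), searched on both strands. The windows are chr3:187745469-187745718 and chr3:187736502-187736751 (minus strand) for BCL6, chr6:106086086-106086335 (plus) for PRDM1, chr16:85902580-85902829 (plus) for IRF8 and chr6:391502-391751 (plus) for IRF4.
BCL6, upstream start: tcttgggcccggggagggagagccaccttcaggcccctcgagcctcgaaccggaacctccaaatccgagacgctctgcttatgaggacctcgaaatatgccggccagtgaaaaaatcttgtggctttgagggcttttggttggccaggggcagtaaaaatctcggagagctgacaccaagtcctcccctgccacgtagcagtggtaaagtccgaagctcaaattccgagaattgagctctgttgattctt
BCL6, downstream start: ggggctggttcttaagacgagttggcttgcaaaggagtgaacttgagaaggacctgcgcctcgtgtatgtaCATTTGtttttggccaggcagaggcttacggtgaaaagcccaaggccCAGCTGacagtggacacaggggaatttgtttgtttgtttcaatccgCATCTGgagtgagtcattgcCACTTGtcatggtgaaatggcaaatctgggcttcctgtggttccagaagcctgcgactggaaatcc
PRDM1: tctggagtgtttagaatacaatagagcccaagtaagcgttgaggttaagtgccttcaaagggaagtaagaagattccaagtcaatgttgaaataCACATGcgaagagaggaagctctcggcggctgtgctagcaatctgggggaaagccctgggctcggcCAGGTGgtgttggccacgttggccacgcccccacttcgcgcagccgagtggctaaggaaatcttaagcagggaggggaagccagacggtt
IRF8: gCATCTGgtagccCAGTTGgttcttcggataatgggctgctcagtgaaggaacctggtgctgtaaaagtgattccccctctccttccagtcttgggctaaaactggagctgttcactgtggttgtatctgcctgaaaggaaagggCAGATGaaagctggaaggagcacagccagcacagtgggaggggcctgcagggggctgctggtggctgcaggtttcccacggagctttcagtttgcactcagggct
IRF4: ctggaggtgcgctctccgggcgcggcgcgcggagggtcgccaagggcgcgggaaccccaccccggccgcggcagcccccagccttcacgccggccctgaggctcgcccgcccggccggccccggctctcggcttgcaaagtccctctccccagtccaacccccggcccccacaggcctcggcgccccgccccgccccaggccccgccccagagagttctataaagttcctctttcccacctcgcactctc

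The promoters differed in base composition, also between IRF8 and BACH2, which were high in the same libraries. The IRF4 window held 28 CpG dinucleotides at 76% G or C, the IRF8 window 2 CpG at 55.6%, and the BACH2 window 40 CpG at 73.6%, against a median of 11 CpG and 58% over 35116 promoter windows of the same length. E-boxes numbered 3 in the printed IRF8 window and 4 in the downstream BCL6 window, 2 in that of PRDM1, and none matched in those of IRF4, BACH2 and the upstream BCL6 start; 61.8% of all windows hold at least 1. The ETS core matched in the EBF1 window alone among the 8 genes and in 16.5% of all windows. The octamer (1.63% of all windows) and the interferon response core (6.88%) matched in none of the 8 genes' windows. A match is only a run of letters, and its absence says nothing of the factor.

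Library labels were examined first because they set every direction below. NR4A1 mRNA, the target, measured 5.99 FPKM in the empty-vector Jeko library, 3.89 and 4.44 in Jeko sgRNA 1 and 2, 11.6 in the control library labelled Rec-1 and 27.4 and 12.7 in those labelled Rec-1 sgRNA 1 and 2, so the targeted mRNA was not lower in the latter pair than in its control. Cas9 cuts need not lower the level of an mRNA. Over 10322 tested protein-coding genes, the Pearson r of the control library labelled Rec-1 was 0.988 with that of Jeko and 0.805 and 0.811 with the sgRNA 1 and 2 libraries labelled Rec-1. CCND1 (cyclin D1), whose translocation defines mantle cell lymphoma, was at 442 to 815 FPKM in the Jeko libraries, 495 in the control library labelled Rec-1, and 0.696 and 0.592 in those labelled Rec-1 sgRNA. CD5, a surface hallmark of the disease, did not exceed 0.0785 FPKM in any library. All 6 general B-cell markers, MS4A1, CD79A, CD79B, CD22 and PTPRC among them, were above 1 FPKM in every library. Of 5 T-cell markers, CD3D, CD3E and CD3G were present in the sgRNA libraries labelled Rec-1 (summed marker level 102 and 120 FPKM, against 2.11 to 5.43 in the other 4), while CD2 did not exceed 0.0291 FPKM in any of the 6 and TRAT1 was listed at 0. Of 5 myeloid markers, CD33 was at 10.7 and 14.4 FPKM in the same 2 libraries and at most 0.049 in the others. LYZ was at 0.64 and 1.93 FPKM in that pair and at 0.371 to 0.964 in the other 4. Over all 6 libraries CD14 did not exceed 0.0531 and CSF1R 0.025, and MPO was listed at 0. Myeloid markers summed to 11.4 and 16.4 FPKM in the pair against 0.479 to 1.07. Natural killer markers summed to 6.7 and 7.21 FPKM there against 0.856 to 2.07. Most of that sum was NKG7, at 6.44 and 6.97 FPKM in the pair. KLRD1 did not exceed 0.265 and NCAM1 0.0195 FPKM in any library. Fibroblast markers summed to 0 and 0.0393 against 1.21 to 3.37, all of it COL1A1, with COL1A2 and DCN listed at 0. Epithelial markers summed to at most 0.186 in any library, and erythroid markers were listed at 0. The part of these markers in the results below was not tested. The comparison between the sgRNA pairs does not use the control library labelled Rec-1. The Rec-1 guide contrast, the interaction and the comparison of the controls do, and have no counterpart without it.

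The 10 factors themselves split the libraries in the same way. Across them, the root mean square difference in log2(FPKM + 1) was 0.49 between the control library labelled Rec-1 and the Jeko control, and 1.89 and 2.11 between it and the sgRNA 1 and 2 libraries labelled Rec-1. Within Jeko the same distance was 0.46 to 0.54, and between the sgRNA libraries labelled Rec-1 it was 0.36. At 8 of the 10 factors both sgRNA libraries labelled Rec-1 lay outside the range of the other 4, a pattern shown by 56.1% of all tested genes (27.0% above and 29.1% below). The 3 above that range were IRF8, BCL6 and BACH2, and the 5 below it were SOX11, EBF1, IRF4, PRDM1 and SPIB, while PAX5 and POU2AF1 overlapped.

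**Figure D1:**
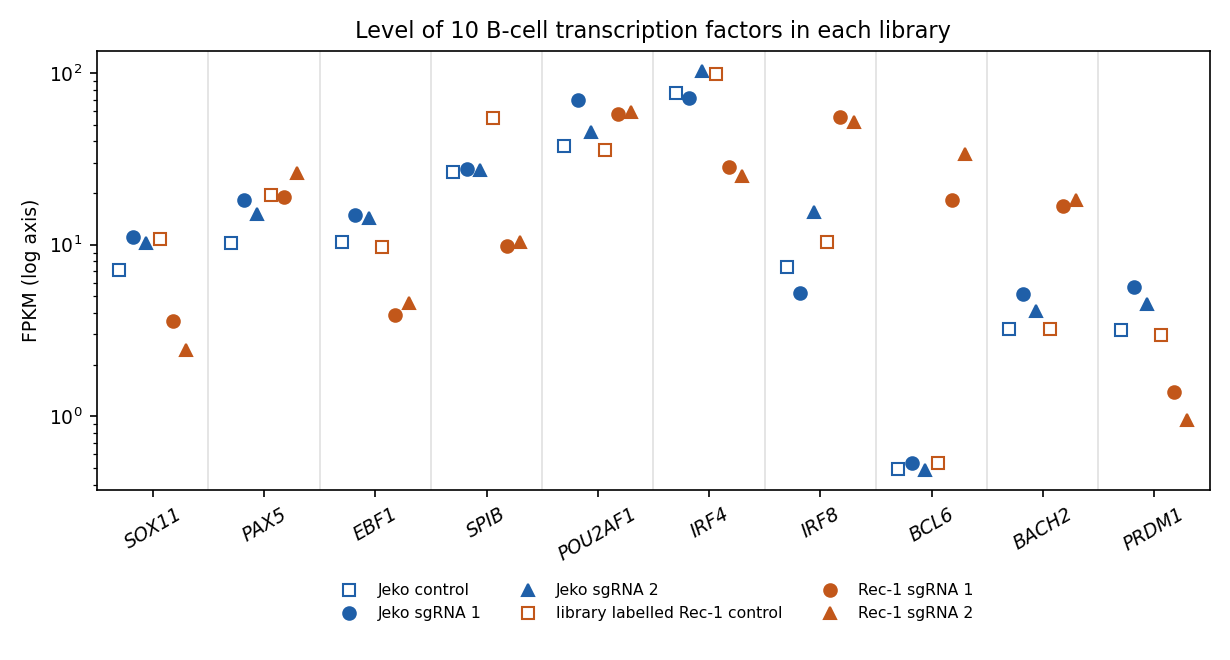
FPKM of the 10 transcription factors on a log axis, 1 point per library, with squares for controls, circles for sgRNA 1 and triangles for sgRNA 2. The orange circle and triangle (sgRNA libraries labelled Rec-1) stand apart from the other 4 points at 8 factors, most of all at BCL6 (18.1 and 33.8 against 0.486 to 0.537 FPKM), and the orange square (labelled Rec-1 control) sits with the blue Jeko points.

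The question of how the lines differ was asked of the sgRNA libraries, 2 for each line, which do not involve the controls. Because the control and sgRNA libraries labelled Rec-1 do not resemble each other, a difference of line and an exchange of lines or labels cannot be told apart here. Of the 10 factors, 8 passed the limma threshold (adjusted p under 0.05 over 11400 genes), 3 higher and 5 lower in the sgRNA libraries labelled Rec-1. Of all tested genes 25.9% passed, 12.8% higher and 13.0% lower, so a large part of the transcriptome separates these libraries. The median difference of the 10 was -0.66 on the log2 scale, against -0.03 for all tested genes. In bulk RNA, fewer cells of a kind and less RNA per cell cannot be told apart. The same 8 passed without either control, and 0 (without Jeko sgRNA 1) or 1 (without any other guide library) passed when a guide library was left out, which leaves 1 pair to measure the spread. The 1 was IRF8 without Jeko sgRNA 2 and BCL6 without a sgRNA library labelled Rec-1.

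BCL6, the master repressor of the germinal centre, showed the largest difference of the 10. The gene is at chromosome 3, 187439165 to 187463513, minus strand (GRCh37). It measured 0.496 FPKM in the Jeko control, 0.535 and 0.486 in Jeko sgRNA 1 and 2, 0.537 in the control library labelled Rec-1, and 18.1 and 33.8 in those labelled Rec-1 sgRNA 1 and 2. The first 4 libraries lay within a narrow low band, and the last 2 were far above it. The sgRNA means were 26.0 ± 11.1 FPKM (SD, n = 2) and 0.511 ± 0.0348 (SD, n = 2), a ratio of 50.9, and the difference in log2(FPKM + 1) was 4.09 (SE 0.33, limma adjusted p 0.00456). The pseudocount compresses this change, and with 0.1 in its place the difference was 5.35. BCL6 reached the filter only through the libraries in which it is high, and it also passed with no filter (limma adjusted p 0.0181).

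PRDM1, the repressor that opposes BCL6, went the other way. The gene is at chromosome 6, 106441338 to 106557814, plus strand (GRCh37). The Jeko control had 3.18 FPKM, Jeko sgRNA 1 and 2 had 5.70 and 4.52, the control library labelled Rec-1 2.99, and those labelled Rec-1 sgRNA 1 and 2 had 1.38 and 0.953. No value of the last pair reached the lowest of the others. PRDM1 was lower by 4.38-fold in mean FPKM between the sgRNA pairs, and by a log2(FPKM + 1) difference of -1.50 (SE 0.19, limma adjusted p 0.0138). BACH2, a repressor that restrains PRDM1 in B cells before plasma cell fate, was at 3.24 FPKM in the Jeko control, 5.15 and 4.12 in Jeko sgRNA 1 and 2, 3.24 in the control library labelled Rec-1, and 16.7 and 18.1 in those labelled Rec-1 sgRNA. BACH2 is at chromosome 6, 90636247 to 91006562, minus strand (GRCh37). The groups did not overlap, and the log2 difference was 1.71 (SE 0.18, limma adjusted p 0.00812).

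IRF4 and IRF8 are related interferon regulatory factors that bind shared ETS-IRF elements with PU.1 or SPIB. IRF4 (chromosome 6, 391739 to 411443, plus strand, GRCh37) was at 76.6 FPKM in the Jeko control, 71.1 and 103 in Jeko sgRNA 1 and 2, 98.3 in the control library labelled Rec-1, and 28.2 and 25.1 in those labelled Rec-1 sgRNA. Every one of the first 4 values exceeded 71, and the last pair was near a common lower level. The log2 difference between the sgRNA pairs was -1.65 (SE 0.26, limma adjusted p 0.0201). IRF8 (chromosome 16, 85932722 to 85956212, plus strand, GRCh37) was at 7.38 FPKM in the Jeko control, 5.23 and 15.4 in Jeko sgRNA 1 and 2, 10.3 in the control library labelled Rec-1, and 55.2 and 51.8 in those labelled Rec-1 sgRNA. In fold it varied more between the Jeko guides than any other of the 10, yet stayed well below the last pair. The log2 difference was 2.43 (SE 0.51, limma adjusted p 0.0397). It did not pass with no filter (limma adjusted p 0.0811), and was 1.73 without Jeko sgRNA 1 and 3.13 without Jeko sgRNA 2.

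Ratios within a library do not depend on how libraries were scaled to each other. FPKM of IRF4 exceeded that of IRF8 by 10.4-fold in the Jeko control, 13.6-fold and 6.73-fold in Jeko sgRNA 1 and 2 and 9.54-fold in the control library labelled Rec-1. In the sgRNA 1 and 2 libraries labelled Rec-1 the same ratio was 0.511 and 0.485. BCL6 over PRDM1 was 0.156 in the Jeko control, 0.0939 and 0.108 in the Jeko sgRNA libraries, 0.18 in the control library labelled Rec-1, and 13.1 and 35.5 in those labelled Rec-1 sgRNA. Each ratio thus crossed 1 between the sgRNA libraries labelled Rec-1 and the other 4. BACH2 over PRDM1 went from between 0.903 and 1.09 in those 4 to 12.1 and 19.0.

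**Figure D2:**
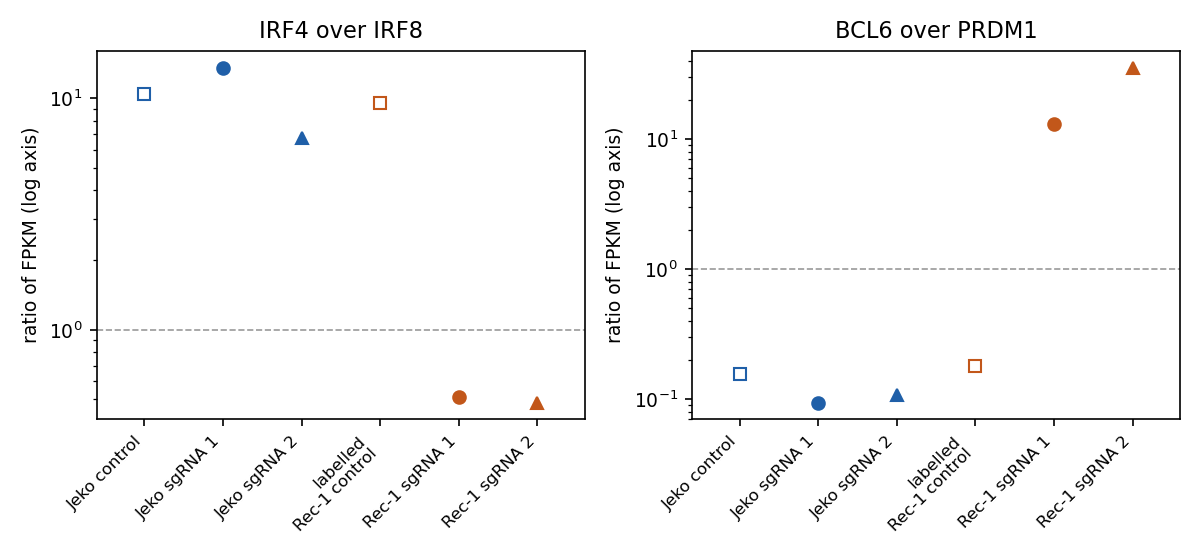
Ratio of FPKM within each library on a log axis, IRF4 over IRF8 at the left and BCL6 over PRDM1 at the right, with the dashed line at 1. The Jeko libraries and the control library labelled Rec-1 lie between 6.73 and 13.6 at the left and between 0.0939 and 0.18 at the right, and the sgRNA libraries labelled Rec-1 lie on the other side of the line in each panel.

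SOX11 was present in all 6 libraries and lower in the pair labelled Rec-1 sgRNA. SOX11 is at chromosome 2, 5832516 to 5841517, plus strand (GRCh37). It was at 7.11 FPKM in the Jeko control, 11.1 and 10.2 in Jeko sgRNA 1 and 2, 10.8 in the control library labelled Rec-1, and 3.60 and 2.45 in those labelled Rec-1 sgRNA 1 and 2. The sgRNA means were 10.6 ± 0.67 FPKM (SD, n = 2) in Jeko and 3.03 ± 0.816 (SD, n = 2) in the pair labelled Rec-1, a difference of -1.55 in log2(FPKM + 1) (SE 0.21, limma adjusted p 0.0154). Its own-family members SOX4 and SOX12 were at 3.68 to 36.1 and 7.18 to 11 FPKM over the 6 libraries, and neither passed between the sgRNA pairs.

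PAX5 and EBF1, which act together in committing cells to the B lineage, parted. EBF1 (chromosome 5, 158122928 to 158526924, minus strand, GRCh37) was at 10.4 FPKM in the Jeko control, 14.8 and 14.2 in Jeko sgRNA 1 and 2, 9.63 in the control library labelled Rec-1, and 3.91 and 4.6 in those labelled Rec-1 sgRNA. It was lower there by a log2 difference of -1.57 (SE 0.17, limma adjusted p 0.00856). PAX5 (chromosome 9, 36833266 to 37034265, minus strand, GRCh37) was at 10.2 FPKM in the Jeko control, 18.1 and 15.1 in Jeko sgRNA 1 and 2, 19.4 in the control library labelled Rec-1, and 18.9 and 26.1 in those labelled Rec-1 sgRNA. Its groups overlapped, and the log2 difference between the sgRNA pairs was 0.40 with a 95% interval of -0.25 to 1.06 (limma adjusted p 0.27). PAX5 over EBF1 was 0.976 to 2.02 in the first 4 libraries and 4.84 and 5.68 in the last 2.

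SPIB and POU2AF1 also differed in behaviour. SPIB (chromosome 19, 50922195 to 50934571, plus strand, GRCh37) was at 26.6 FPKM in the Jeko control, 27.7 and 27.3 in Jeko sgRNA 1 and 2, 54.6 in the control library labelled Rec-1, and 9.77 and 10.4 in those labelled Rec-1 sgRNA. The 3 Jeko values were almost equal, and the sgRNA pairs differed by -1.37 on the log2 scale (SE 0.16, limma adjusted p 0.0113). SPI1 (PU.1), the ETS factor closest to SPIB in function, was at 13.9 to 17.7 FPKM in the first 4 libraries and at 82.1 and 45.8 in the pair labelled Rec-1 sgRNA, so that SPIB over SPI1 went from between 1.5 and 3.39 to 0.119 and 0.226. POU2AF1 (chromosome 11, 111222980 to 111326355, minus strand, GRCh37) was at 37.3 FPKM in the Jeko control, 69.5 and 45.3 in Jeko sgRNA 1 and 2, 35.6 in the control library labelled Rec-1, and 57.6 and 58.9 in those labelled Rec-1 sgRNA. The groups overlapped, and the log2 difference of 0.05 had a 95% interval of -0.69 to 0.79 (limma adjusted p 0.9).

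The order of the levels, which FPKM allow because they are per length, changed with the same split. IRF4 was the highest of the 10 in the 3 Jeko libraries and the control library labelled Rec-1, followed by POU2AF1 and SPIB in either order, and BCL6 was the lowest in each of these 4. In the sgRNA libraries labelled Rec-1 the highest were POU2AF1 and then IRF8, and the lowest were PRDM1 and then SOX11. IRF4, PAX5 and BCL6 lay between 18.1 and 33.8 FPKM there and changed order between the 2 guides. PAX5, EBF1 and SOX11 were neighbours in the Jeko sgRNA libraries, at 10.2 to 18.1 FPKM, and the guides' values of these 3 did not overlap, whereas those of PRDM1 (4.52 and 5.7) and BACH2 (4.12 and 5.15) did.

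The next comparison set sgRNA libraries against the control of their own line, the contrast for which the libraries were made. The line's control is 1 library, which the fit assumes to vary as the guide libraries do. In Jeko, 0 of the 10 factors passed limma's threshold and 0 had an unadjusted p under 0.05, where 0.439% of tested genes passed. With both guides, 0 of the 10 differed from the Jeko control by at least 1 in log2(FPKM + 1), against 3.04% of tested genes. Both guides gave a higher value than the control at 7 of the 10 (SOX11, PAX5, EBF1, PRDM1, SPIB, POU2AF1, BACH2), against 36.9% of tested genes, and the median log2 difference of the 10 was 0.42, against 0.00 for all tested genes. The full range of the 10 was 0.01 (BCL6) to 0.65 (PAX5).

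PAX5 and SOX11 show the size of these Jeko values. PAX5 in Jeko sgRNA 1 and 2 stood at 178% and 148% of the control, a log2 difference of 0.65 with a 95% interval of -0.16 to 1.45 (limma adjusted p 0.477). SOX11 stood at 156% and 143% of it, a difference of 0.52 with an interval of -0.19 to 1.23 (limma adjusted p 0.499). PRDM1 (0.54), POU2AF1 (0.58), EBF1 (0.44) and BACH2 (0.40) had values of similar size on the same scale, none past the threshold. IRF8 was at 70.9% of the control with the one guide and 208% with the other. The longest annotated transcripts of the 10 have a median of 5231 nt, against 3657 nt for tested genes. Most of these values were smaller after an adjustment for that length, and the median difference of the 10 was then 0.14. SOX11 was at 0.15, PAX5 at 0.29, EBF1 at 0.25, PRDM1 at 0.37 and BACH2 at 0.03, while POU2AF1 alone of these was larger, at 0.68. Whether transcript length had a part in the Jeko differences was not tested. The intervals leave room for changes in either direction, so no shift of the 10 with NR4A1 guides in Jeko was detectable with these libraries.

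In Rec-1 the same contrast uses the control library labelled Rec-1, and shares its 2 sgRNA libraries with the comparison between the lines. Of the 10 factors 6 passed limma's threshold, 2 higher and 4 lower, against 19.2% of tested genes (10% higher and 9.11% lower). BCL6 and BACH2 were higher by 4.07 (SE 0.41) and 2.12 (SE 0.22) on the log2 scale, with limma adjusted p of 0.0101 and 0.0105. SPIB was lower by the most, at -2.33 (limma adjusted p 0.00711), ahead of IRF4 at -1.85 (0.0299), SOX11 at -1.57 (0.0283) and EBF1 at -1.02 (0.0415) by the same test. SOX11 in the sgRNA 1 and 2 libraries labelled Rec-1 stood at 33.3% and 22.7% of the control library labelled Rec-1. IRF8 (2.27, limma adjusted p 0.0797) and PRDM1 (-0.89, limma adjusted p 0.0745) did not pass, nor did POU2AF1 (0.69) and PAX5 (0.18). Both guides differed from the control by at least 1 in log2(FPKM + 1) at IRF8, BCL6 and BACH2 (higher) and at SOX11, IRF4 and SPIB (lower), against 23.3% of tested genes. Without the sgRNA 1 library labelled Rec-1, and likewise without sgRNA 2, BCL6 alone passed, at 4.50 and 3.64. Without Jeko sgRNA 1, and likewise without Jeko sgRNA 2, the 3 that passed were BACH2, SPIB and IRF8, the last not among the 6, and BCL6 did not. With no filter 3 passed (BCL6, BACH2 and SPIB), with limma adjusted p of 0.0543, 0.0565 and 0.0511 for SOX11, EBF1 and IRF4, and among protein-coding genes alone 8 passed.

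SPIB differed most between the controls. The control library labelled Rec-1 had 2.05 times the SPIB of the Jeko control, the only factor of the 10 to differ there by at least 1 in log2(FPKM + 1), against 2.51% of tested genes. PAX5 was 1.91 times and SOX11 1.52 times as high in it, and BACH2 was equal at 3 significant digits. With 1 library on each side this has no replicate check.

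**Figure D3:**
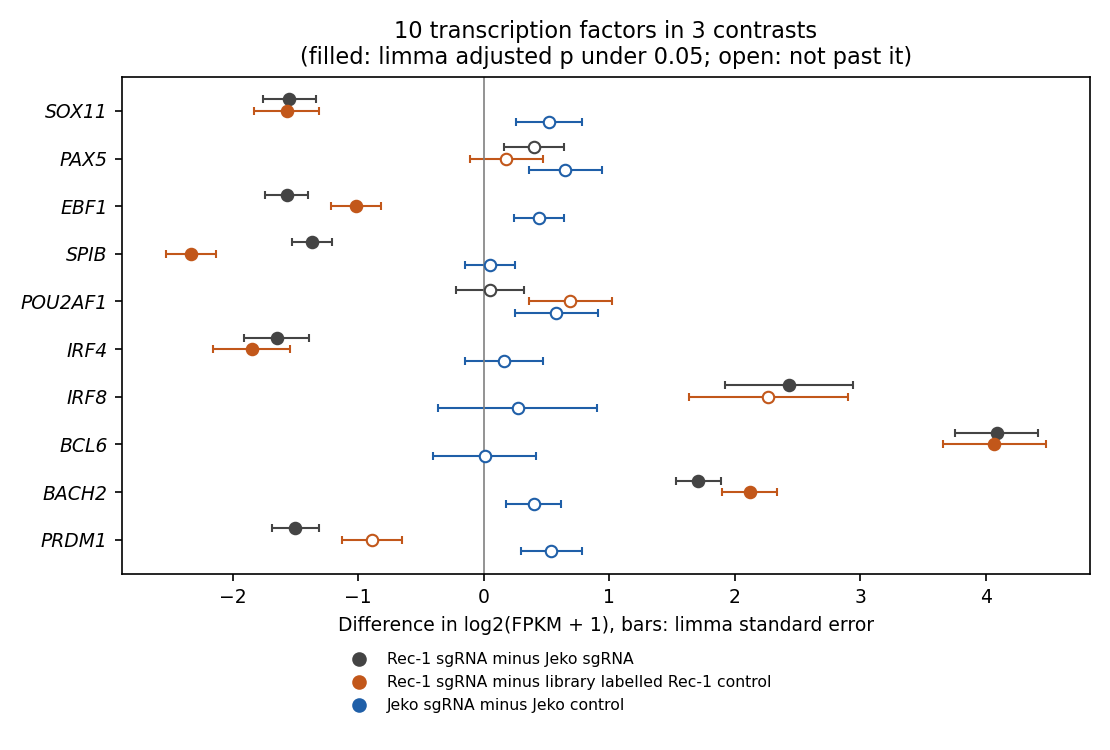
Differences in log2(FPKM + 1) of the 10 transcription factors in 3 contrasts, with bars for the standard error from limma and filled symbols for an adjusted p under 0.05. The Rec-1 minus Jeko sgRNA contrast has 8 filled symbols, the contrast of the sgRNA libraries labelled Rec-1 with the control library labelled Rec-1 has 6, and the Jeko contrast has none.

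Whether the guides acted differently in the lines was asked with an interaction term, the guide difference in Rec-1 minus that in Jeko. BCL6 (4.06, SE 0.58, limma adjusted p 0.0356) and SPIB (-2.38, SE 0.28, limma adjusted p 0.0243) passed, 2 of the 10, against 6.94% of tested genes. SOX11 (-2.09, limma adjusted p 0.0582), BACH2 (1.71, 0.0618), EBF1 (-1.46, 0.0751), IRF4 (-2.01, 0.0958) and PRDM1 (-1.43, 0.11) did not. BCL6 was lost with no filter (limma adjusted p 0.0861), and a block for guide number left 0 of the 10, as did leaving out Jeko sgRNA 1 or Jeko sgRNA 2. With a filter at 5 FPKM BCL6 did not pass either. Among protein-coding genes alone 5 of the 10 passed, SOX11 among them (limma adjusted p 0.0216), and with the length adjustment 3 did, BACH2 being the third (limma adjusted p 0.0301). This term rests on the control library labelled Rec-1 as much as the contrast before it does. Over both lines together, 0 of the 10 passed for sgRNA against control (0.246% of tested genes did), and 2 had an unadjusted p under 0.05. These were POU2AF1 (0.64, limma adjusted p 0.218) and BACH2 (1.26, limma adjusted p 0.203), which were also the 2 of the 10 that lay above their own line's control in all 4 sgRNA libraries, against 42.1% of tested genes with 1 sign in all 4. This fit needs both controls: without one of them it becomes the contrast of the other line alone, given above.

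Known targets and partners of the 10 were read from lists chosen by function. Among 12 genes that PAX5 activates, 10 were tested, and 4 were higher and 1 lower in the sgRNA libraries labelled Rec-1 than in Jeko sgRNA, while PAX5 itself overlapped. Of all tested genes, 12.8% were higher and 13.0% lower in this contrast. The coreceptor CD72 was at 8.14 and 13.5 FPKM in Jeko sgRNA 1 and 2 and at 123 and 119 in the sgRNA libraries labelled Rec-1 (log2 difference 3.40, limma adjusted p 0.0049), and the kinase BLK at 15.2 and 17.8 against 48.0 and 37. CIITA, the switch of MHC class II, which PRDM1 represses, was lower, at 17.8 and 13.0 against 6.86 and 5.54. LEF1 was also higher. FCER2 was at 6.52 and 19.2 against 0.481 and 4.09, a log2 difference of -2.17 that did not pass (limma adjusted p 0.125). The other tested genes of the list that did not pass lay above 0. The median difference of this list was 0.79, against -0.03 over all tested genes.

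Genes of the germinal centre, the state that BCL6 governs, were higher in the sgRNA libraries labelled Rec-1 at 6 of the 12 tested (13 listed) and lower at 0, against 12.8% and 13.0% of all tested genes. The surface peptidase MME (CD10) was at 0 to 0.0573 FPKM in the 3 Jeko libraries and the control library labelled Rec-1, and at 57.2 and 40.3 in those labelled Rec-1 sgRNA. RGS13, which damps chemokine signalling, was at 0 to 0.187 FPKM in the first 4 and at 17.8 in each of the last 2. LMO2 was listed at 0 in the first 4 and at 16.3 and 25.8 in the last 2. GCSAM and S1PR2 also passed. Of the tested genes that did not pass, STMN1 (-0.61) and BCL7A (-0.36) lay below 0 on the log2 scale. ELL3 (1.79), MEF2B (1.52), MYBL1 (0.78) and CD38 (0.41) lay above it. MME, RGS13 and LMO2, among others, reached the filter only through the libraries in which they are high, so their count adds no support.

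Among plasma cell genes, the programme that IRF4 and PRDM1 drive, 2 of 11 tested (13 listed) were lower in those libraries and 0 were higher, against 13.0% and 12.8% of all tested genes, so that the share of lower genes was near the background. SDC1 (CD138) was at 23.7 and 16.7 FPKM in Jeko sgRNA 1 and 2 and at 1.22 and 1.86 in the sgRNA libraries labelled Rec-1 (log2 difference -3.05, limma adjusted p 0.00496). TNFRSF17 (BCMA) was at 79.8 and 103 against 26.6 and 28.1. SEC11C, a signal peptidase subunit, at 569 and 1600 against 168 and 255, and CREB3L2, at 17.6 and 32.3 against 10.4 and 8.81, did not pass, and XBP1, the factor of the secretory programme, was at 66.0 and 189 against 163 and 216 and did not pass either. Other listed genes lay above 0 without passing, DERL3 at 0.98, MZB1 at 0.86 and PRDX4 at 0.42 on the log2 scale. The median of the list was -0.37.

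Of 9 SOXC genes and genes tied to SOX11 in mantle cell lymphoma, 8 were tested, 3 were lower there and 0 higher, against 13.0% and 12.8% of all tested genes. PDGFA, a growth factor that SOX11 has been reported to switch on, was at 31.7 and 30.5 FPKM in Jeko sgRNA 1 and 2 and at 2.39 and 3.54 in the sgRNA libraries labelled Rec-1 (log2 difference -3.03, limma adjusted p 0.00342). The chemokine receptor CXCR4 was at 620 and 665 against 93.6 and 102, and the actin-binding DBN1 at 88.6 and 89.6 against 52.6 and 51.0. HDGFRP3, a gene known with SOX11 in this disease, was at 26.9 and 25.6 against 10.5 and 15.5 and did not pass (limma adjusted p 0.0549). The other tested genes of the list did not pass. Of these, SOX4 was at -2.08 on the log2 scale, and MSI2 (0.62), CD70 (0.29) and SOX12 (0.20) lay above 0. The median of the list was -0.88.

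Other transcription factors of the lineage moved both ways, 8 of 22 tested (24 listed) higher and 3 lower, against 12.8% and 13.0% of all tested genes. MEF2C was at 0.212 to 0.742 FPKM in the 3 Jeko libraries and the control library labelled Rec-1, and at 20.3 and 24.1 in those labelled Rec-1 sgRNA. The ETS factor ELF1 was at 72.5 and 66.9 in Jeko sgRNA 1 and 2 against 184 and 220, and the forkhead factor FOXP1 was lower, at 7.01 and 7.75 against 2.17 and 1.86. Of 13 tested partners and regulators of the 10 (14 listed), 4 were higher and 1 was lower, against the same shares. BCOR, the corepressor that BCL6 recruits, was at 0.0229 to 0.113 FPKM in the first 4 libraries and at 16.3 and 21.0 in the last 2, so that the repressor and its partner were high in the same libraries. POU2F2 (OCT2), to which POU2AF1 binds, was at 4.65 and 5.12 against 15.2 and 12.4 (limma adjusted p 0.0156), whereas POU2AF1 did not pass. MAFF, of the small MAF proteins that pair with BACH2, was at 0.198 and 0.417 against 3.96 and 5.93. The other small MAF genes listed, MAFK (0.09 on the log2 scale) and MAFG (-0.17), did not pass, nor did HMOX1 (0.45), listed as a BACH2 target. The ETS repressor ETV6 was lower, at 22.4 and 21.0 against 3.95 and 4.37. MEF2C, LMO2, BCOR and MAFF reached the filter only through the libraries in which they are high. In none of these 6 lists did a gene pass in Jeko sgRNA against its control or in sgRNA against control over both lines.

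**Figure D4:**
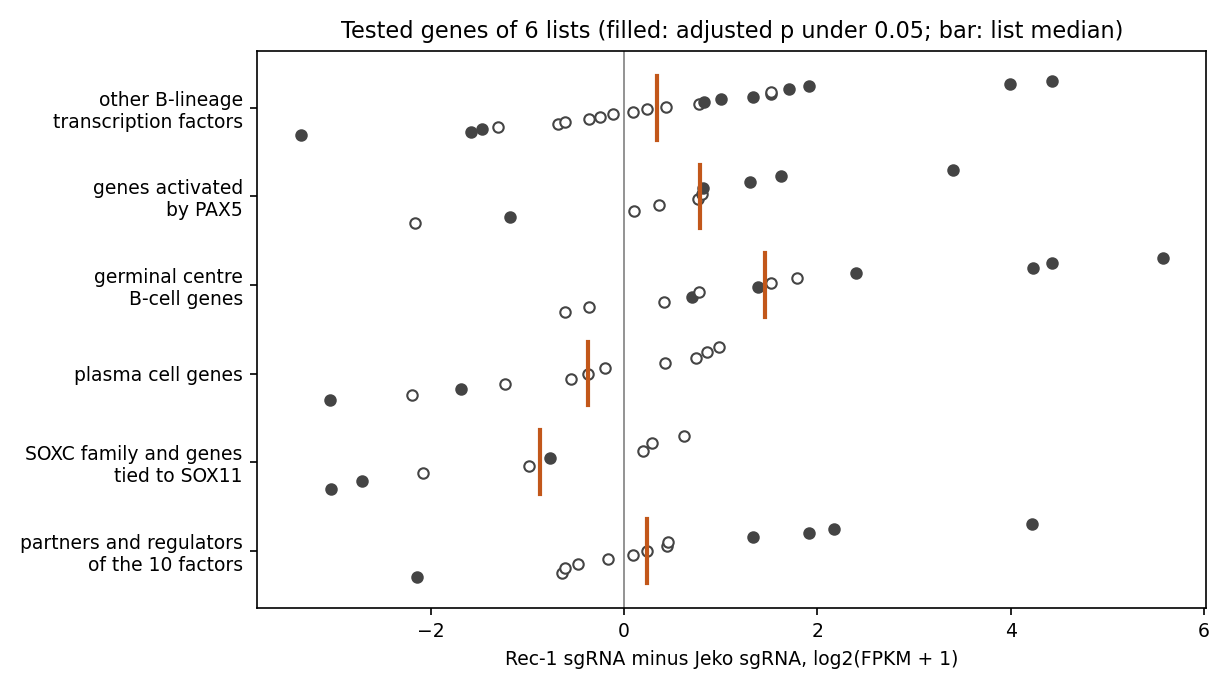
Difference in log2(FPKM + 1) between the sgRNA libraries labelled Rec-1 and Jeko sgRNA for each tested gene of the 6 lists, with filled points for a limma adjusted p under 0.05 and an orange bar at the median of each list. The germinal centre list has 6 filled points, all above 0, the SOX11 list 3, all below 0, and the plasma cell list 2, both below 0.

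The genes whose levels followed each factor most closely over the 6 libraries were found by the root mean square distance between centred log2(FPKM + 1) profiles. SIK1 (0.12), PRR4 (0.13) and LRRK2 (0.13) were nearest to SOX11, SPATS2 (0.07), SAMD9L (0.08) and E2F6 (0.09) to EBF1, and ATP2B1 (0.13), CALCOCO1 (0.19) and PICALM (0.20) to PAX5. LIX1 (0.05) was nearest to BCL6 and DENND4A (0.04) to PRDM1, followed by GABARAPL1 and TNFSF8 for BCL6 and by TBK1 and ORAI2 for PRDM1. ZBTB46 (0.11) was nearest to IRF4 with PAX8 and ZNF841, POLD4 (0.17) to IRF8 with ABHD4 and SEMA4A, REP15 (0.13) to SPIB with GOLGA7B and ABCA6, and PAFAH1B2 (0.08) to BACH2 with LHPP and ELF1. POU2AF1 varied too little over the libraries for such a match. With 6 libraries that fall into 2 clusters, these likenesses mostly restate that split.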

How the data were processed

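RNA-seq of 6 libraries was analysed from 1 deposited table of 25277 gene rows in FPKM. The authors' alignment used TopHat and the build hg19, both named in the submitters' processing notes. The program that computed the deposited FPKM values and its annotation are not given in the sources used here. Read depth is unknown. Steps in the low values gave depths of 0.687 to 1.1 times that of the Jeko control for 4 libraries, and the sgRNA 1 library labelled Rec-1 gave none. Of the names, 28 are calendar dates, and these rows could not be matched to genes.

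Values were taken as log2(FPKM + 1), and 11400 genes that averaged 1 FPKM or more were tested with limma 3.58.1 in R 4.3.3 (trended eBayes, Benjamini-Hochberg adjustment, threshold 0.05). All 6 libraries entered a fit with 4 group means, and a second fit had line and sgRNA. A fold change on this scale understates changes of low genes. Scripts were tested on simulated data. Gene positions are from GENCODE 44 lifted to GRCh37. The labels give the same guide number in both lines but name no shared batch or culture, and 2 pairs are too few to show a pairing, so no block was used. The 10 members, the gene lists, the markers and the tests were chosen with earlier results of these data known. From each list the up to 4 genes with the lowest p between the sgRNA pairs were named, except some not reported here, with the 3 profiles most like each member. SOX4, SOX12, MSI2, CD70, SPI1, XBP1, LEF1, GCSAM, S1PR2, DERL3, MZB1, PRDX4, MAFK, MAFG, HMOX1, KLF2, MEF2B and EHMT2 were named after their values were seen. So were STMN1, BCL7A, ELL3, MYBL1, CD38 and FCER2. Alternatives covered the pseudocount, filter, scaling, transcript length, gene class, a guide block, the variance trend and each library left out.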

Additional observations from a re-analysis of the deposited data

Results flagged for a closer look

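BCL6 and SPIB passed the interaction test of line and guide, at 4.06 (SE 0.58, limma adjusted p 0.0356) and -2.38 (SE 0.28, limma adjusted p 0.0243) in log2(FPKM + 1), Rec-1 minus Jeko. BCL6 reached the filter only through the sgRNA libraries labelled Rec-1. It did not pass with no filter (limma adjusted p 0.0861) or with a filter at 5 FPKM. With the guide block neither passed (limma adjusted p 0.0549 for BCL6 and 0.0574 for SPIB), and without Jeko sgRNA 1 or Jeko sgRNA 2 0 of the 10 factors passed. SOX11 (-2.09), EBF1 (-1.46) and PRDM1 (-1.43) stood out because both Jeko sgRNA libraries lay above the Jeko control and both sgRNA libraries labelled Rec-1 lay below the control library labelled Rec-1; the interaction did not pass for these 3 (limma adjusted p 0.0582, 0.0751 and 0.11). NR4A1, the target, was lower with both guides in Jeko and higher with both in the libraries labelled Rec-1, with an interaction of 1.09 that did not pass (limma adjusted p 0.438). All 6 values use the control library labelled Rec-1, which lay nearest to the Jeko control.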

How the results depend on the processing

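Of the 11400 genes tested, 2947 passed between the sgRNA pairs, 28 for sgRNA over both lines, 791 for the interaction, 50 in Jeko and 2184 in Rec-1. A filter at 5 FPKM gave 1549, 318 and 1083 for the line, interaction and Rec-1 contrasts. Protein-coding genes alone gave 0 over both lines (2324 at an unadjusted p under 0.05) and 3 in Jeko, and no filter gave 12 over both lines. Same-numbered guides had deviations correlated at r = 0.0998 across the 11400 genes and at 0.207 among the protein-coding ones. A replicate block for guide number gave 9 over both lines and 428 for the interaction; it left 0 of the 10 factors past the threshold for the interaction and 5 in Rec-1 (without EBF1), and changed no other call of theirs. Of the 10 factors, no filter left 3 past the threshold in Rec-1 and 1 for the interaction, protein-coding genes alone gave 8 and 5, and the length adjustment gave 6 and 3. Leaving out 1 library gave 803 to 2940 between the pairs, 11 to 2180 over both lines, 75 to 454 for the interaction, 41 to 51 in Jeko and 657 to 2180 in Rec-1. The cause was not tested, save that leaving out a guide library leaves 1 pair to measure the spread. Contrasts that need a left-out control could not be fitted.

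Signs turned only for values that had not passed. Over the libraries left out, POU2AF1 ranged from -0.25 to 0.36 between the pairs and from -0.19 to 0.42 for the interaction, with the low end without Jeko sgRNA 2. In Jeko, IRF4 ranged from -0.11 to 0.43, IRF8 from -0.43 to 0.97 and BCL6 from -0.01 to 0.04, and PAX5 in Rec-1 ranged from -0.04 to 0.41. With the length adjustment, IRF4 and BCL6 in Jeko were -0.02 and -0.06, and NR4A1 over both lines -0.0021. In the fit of sgRNA over both lines, leaving out a control leaves the contrast of the other line alone. Without the Jeko control and without the control labelled Rec-1 it thus gave SOX11 -1.57 and 0.52, EBF1 -1.02 and 0.44, IRF4 -1.85 and 0.16, PRDM1 -0.89 and 0.54, SPIB -2.33 and 0.05, and NR4A1 0.65 and -0.44; without the sgRNA 1 library labelled Rec-1, NR4A1 was -0.20. The absolute depth is unknown, and the number of libraries limits the precision.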

Other observations

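EHMT2, a histone methyltransferase that many cell types express and that PRDM1 can recruit, was listed at 0 in all 6 libraries, which in FPKM can be a failed estimate. MEF2B, a factor of germinal centre cells whose locus overlaps a neighbouring gene, was at 217 FPKM in the Jeko control, 40 and 241 in Jeko sgRNA 1 and 2, 365 in the control library labelled Rec-1 and 390 and 209 in the sgRNA 1 and 2 libraries of that label; the one low value made its spread wide, and the difference between the sgRNA pairs was 1.52 on the log2 scale (limma adjusted p 0.298). KLF2, a factor of resting B cells, was at 9.78 to 23.7 FPKM in the first 4 libraries and at 0.701 and 0.506 in the last pair (-3.35, limma adjusted p 0.0146).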
